A study of Mus musculus with 12 samples.

Results

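The genes described here encode the core machinery that makes microRNAs and uses them to silence messenger RNAs. They are the nuclear Microprocessor pair Drosha and Dgcr8, the export receptor Xpo5, the enzyme Dicer1 with its partners Tarbp2 and Prkra, the scaffold genes Tnrc6a, Tnrc6b and Tnrc6c, and the helicase Ddx6. The rule takes the 10 genes by name and uses no measured value. They come from 23339 genes in a table of read counts from mouse pancreatic islets, the clusters of endocrine cells that release insulin and glucagon. The deposited counts cover 6 libraries with the genotype given as miR-17-92/106 KO and 6 with miR-17-92/106 Control, all from langerhans islets of C57BL/6 mice. The series title and design name the deleted clusters as miR-17-92/106b. The sources used here do not state the promoter or cell type of any Cre, whether the deletion is complete, or the sex and age of the mice. No label says that the libraries came from separate mice, so p-values measure the spread between these libraries, which may be partly technical.

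A microRNA begins as a hairpin in a longer transcript. Drosha cuts the hairpin out in the nucleus with Dgcr8 as its RNA-binding partner, exportin 5 carries it to the cytoplasm, and Dicer trims it to a duplex with help from TARBP2 and PACT, the product of Prkra. One strand is loaded into an Argonaute protein, which binds a TNRC6 (GW182) scaffold, and the scaffold recruits deadenylases and the helicase DDX6 to repress and degrade the bound messenger RNA. In beta cells, loss of Dicer is known from mouse models to impair insulin production.

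The microRNAs of the deleted clusters are products of this machinery, and their mature strands are shown because their seeds define the target sites searched for in the machinery's own transcripts. The sequences are those of RefSeq for GRCm38.p6, 5′ to 3′, with the seed (bases 2 to 8) in capitals. The miR-17-92 strands shown lie on the plus strand within chr14:115043684-115044496, and those of the miR-106b cluster on the minus strand within chr5:138165332-138165807. The 4 strands miR-17-5p, miR-20a-5p, miR-106b-5p and miR-93-5p share 1 seed across both clusters.
miR-17-5p: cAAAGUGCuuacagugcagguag
miR-20a-5p: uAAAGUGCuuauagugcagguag
miR-106b-5p: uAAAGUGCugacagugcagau
miR-93-5p: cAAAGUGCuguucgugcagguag
miR-18a-5p: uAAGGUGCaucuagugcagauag
miR-19a-3p: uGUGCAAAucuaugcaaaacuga
miR-19b-3p: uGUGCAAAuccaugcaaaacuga
miR-92a-3p: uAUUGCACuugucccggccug
miR-25-3p: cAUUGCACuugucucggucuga

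Sites for these seeds were sought in the longest annotated 3′ UTR of each gene (GENCODE M21, GRCm38), on the transcript's strand alone, as the 7mers GCACTTT for miR-17, GCACCTT for miR-18, TTTGCAC for miR-19 and GTGCAAT for miR-92. These letters occurred 13 times, in 6 of the 10 genes. The Tnrc6b 3′ UTR of 11609 bases held 6 of the matches, those of Dicer1 and Tnrc6c held 2 each, and those of Dgcr8, Tnrc6a and Ddx6 held 1 each. The 3′ UTRs of Drosha, Xpo5, Tarbp2 and Prkra held none, and that of Drosha is 169 bases long. By family, 8 matches were to miR-19, 3 to miR-17, 2 to miR-18 and 0 to miR-92. Counted by gene, 5 of the 10 held a miR-19 match, 3 a miR-17 match, 2 a miR-18 match and 0 a miR-92 match. Among 9384 tested genes with an annotated 3′ UTR, 35.9% held at least 1 of the 4 motifs, with 15.3% for miR-17, 10.4% for miR-18, 14.3% for miR-19 and 8.03% for miR-92. The share was higher for longer 3′ UTRs, being 13.02% for 3′ UTRs under 1000 bases, 41.7% for those of 1000 to 3000 bases and 70.9% for longer ones, and the genes of the machinery have a median 3′ UTR of 2081 bases against 1377 for all tested genes. Over all bases, the machinery's 3′ UTRs held 0.426 matches per kb, against 0.304 per kb for the tested genes. A match is a description of the letters and not evidence of a bound site.

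The matches extended by an A into an 8mer, and the miR-17 7mers, which are all in Tnrc6 genes, are shown with flanking bases from the GENCODE M21 transcripts. Capitals mark the match, and coordinates are those of the printed stretch in GRCm38. All 4 of the 8mers are to miR-19, with 1 in Dgcr8 and 3 in Tnrc6b. By that criterion 14.4% of the tested genes with a 3′ UTR held a match to any of the 4 families. The Dgcr8 8mer lies at chr16:18254773-18254802 on the minus strand. Those of Tnrc6b lie on the plus strand at chr15:80936819-80936848, chr15:80939552-80939581 and chr15:80940190-80940219. The miR-17 matches are on the plus strand at chr7:123170008-123170036 in Tnrc6a, chr15:80940536-80940564 in Tnrc6b and chr11:117761130-117761158 in Tnrc6c. The Tnrc6a match lies well before the annotated end of that gene at chr7:123195296. It may thus be in a 3′ UTR that not all Tnrc6a transcripts share, and gene counts do not show which transcripts islets hold.
Dgcr8 miR-19 8mer: ttacagagattTTTGCACAaccaagcccat
Tnrc6b miR-19 8mer, first: tgagcacccatTTTGCACAgtgtgagttgt
Tnrc6b miR-19 8mer, second: ctactacacccTTTGCACAcaccagtgacc
Tnrc6b miR-19 8mer, last: agctttccaacTTTGCACAcaaatggaagg
Tnrc6a miR-17 7mer: gttaaatccaaGCACTTTgaattcagcta
Tnrc6b miR-17 7mer: acagaaactagGCACTTTggtggttcact
Tnrc6c miR-17 7mer: tatcatgaaggGCACTTTtcagattgtgg

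Library totals ran from 2642420 to 4966721 counts in KO islets and from 2705479 to 5099566 counts in control islets. Insulin transcripts (Ins1 and Ins2) took 48.6 to 62.6% of counts in KO islets and 57.5 to 64.0% in control islets, and beta, alpha, delta and PP cell hormones were counted in every library, as the islet label says. The machinery is a small part of what is left: the 10 genes together had 986 to 2174 counts in single KO libraries and 1168 to 2135 in single control libraries. Markers of acinar cells, the digestive enzyme cells around the islets, took a median of 1.79% of counts and at most 12.3% in KO islets, against a median of 1.84% and at most 5.02% in control islets. KO replicates 5 and 6 and control replicate 1 had the highest acinar shares. Values with these 3 acinar-rich libraries left out are given beside some of the genes. Shares of other cell types varied as well, with ranges that overlapped between groups. Delta cell markers took 0.181 to 0.278% of counts in KO islets and 0.237 to 0.349% in control islets, and alpha cell markers 0.587 to 0.790% in KO islets and 0.596 to 1.27% in control islets. Erythroid markers took 0.0126 to 0.0293% in KO islets and 0.00655 to 0.0158% in control islets. Leukocyte markers took 0.00399 to 0.0220% in KO islets, highest in KO replicate 6, and 0.00418 to 0.00507% in control islets. The PP cell marker took 0.163 to 0.416% in KO islets and 0.102 to 0.363% in control islets. Endothelial markers took 0.0105 to 0.0147% in KO islets and 0.0133 to 0.0173% in control islets. The part of these shares in the results was not tested. In whole islets, fewer cells of a type and less RNA per cell cannot be told apart.

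None of the 10 genes passed the threshold, an adjusted p of 0.05 in edgeR's quasi-likelihood test with Benjamini-Hochberg adjustment over 9664 tested genes. All 10 were abundant enough to be tested. Of all tested genes, 12 passed, 7 higher and 5 lower in KO islets, which is 0.124% of those tested. At an unadjusted p under 0.05 there was 1 gene of the machinery, Drosha, against a background of 7.91% of all tested genes, or 3.88% when only genes lower in KO islets are counted. DESeq2 and limma's voom with quality weights also called 0 of the 10. In every gene of the machinery the KO and control ranges overlapped, as they did in all but 0.579% of the tested genes. The estimate was below 0 for 8 of the 10, against 49.3% of all tested genes, but most were small: the median log2 fold change was -0.06, and that of all tested genes was 0.0036.

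**Figure D1:**
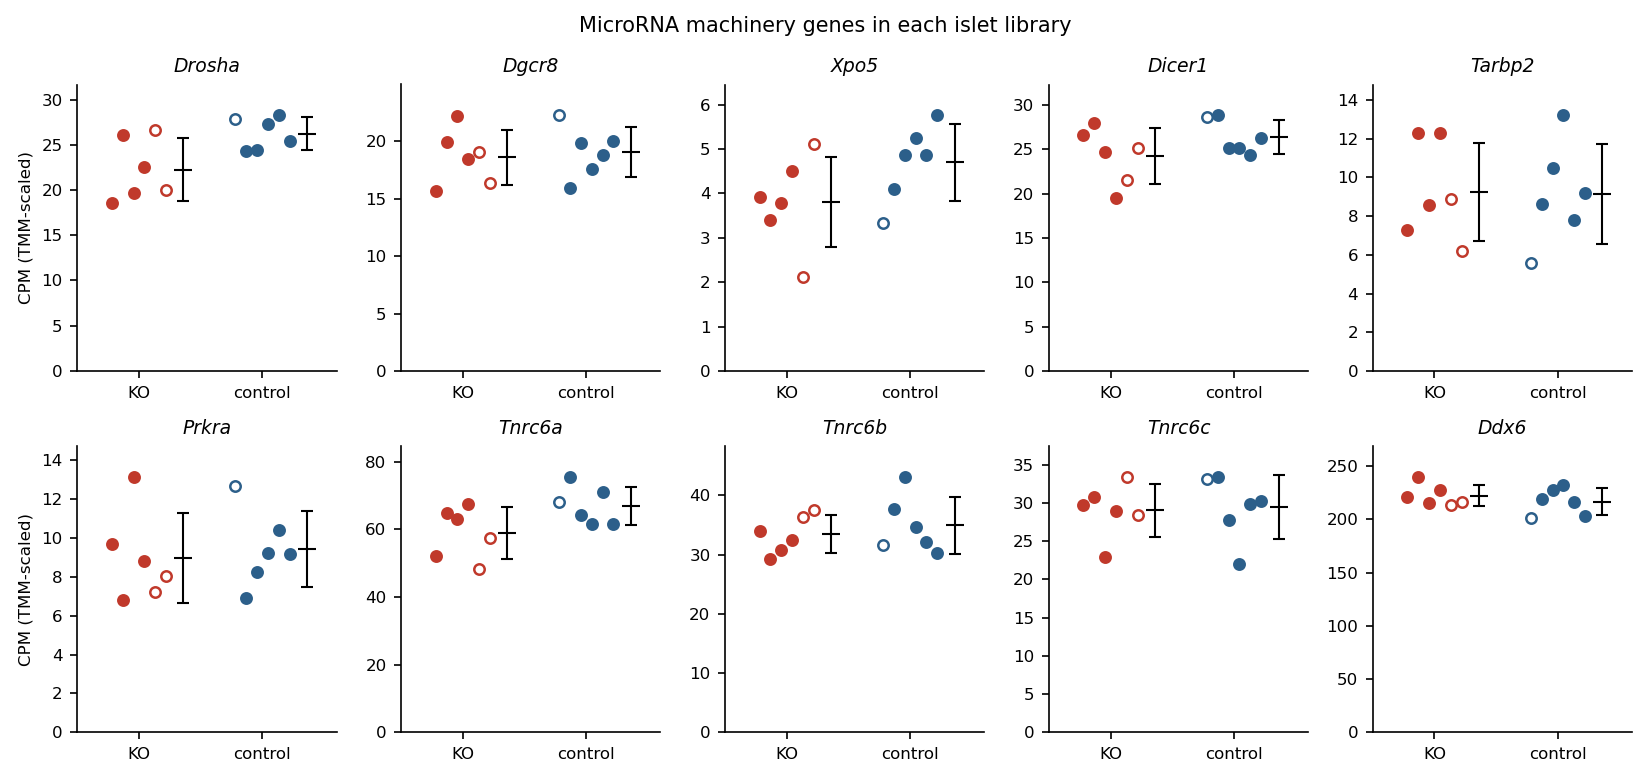
Counts scaled to library size (CPM) of each of the 10 genes in every library, KO libraries left of control libraries in each panel, with black bars for the mean ± SD of the 6 libraries of a group and open markers for the 3 libraries with the highest acinar share. The KO and control points overlap in all panels, with Drosha at 18.5 to 26.7 CPM in KO islets and 24.3 to 28.3 CPM in control islets.

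Levels of different genes were set side by side as CPM per kb of exon. Ddx6 stood far above the rest at 27.7 ± 1.25 CPM per kb in KO islets and 27.0 ± 1.56 in control islets (n = 6 each, SD), a level above that of 92.4% of tested genes in control islets. Tnrc6a, Prkra and Drosha followed at 4.64 ± 0.598, 4.41 ± 1.14 and 3.75 ± 0.582 CPM per kb in KO islets and 5.27 ± 0.444, 4.65 ± 0.964 and 4.42 ± 0.298 in control islets. Neighbours in this order differed by less than the SD of Prkra in both groups. The median tested gene was at 3.01 CPM per kb in control islets.

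The next levels were those of Dgcr8, Tnrc6c and Tarbp2, at 2.42 ± 0.311, 2.26 ± 0.270 and 2.04 ± 0.559 CPM per kb in KO islets and 2.48 ± 0.284, 2.29 ± 0.325 and 2.01 ± 0.567 in control islets. Their ranges overlapped, so their order is not resolved. Dicer1 and Tnrc6b had 1.45 ± 0.191 and 1.41 ± 0.135 CPM per kb in KO islets and 1.58 ± 0.114 and 1.47 ± 0.203 in control islets. Xpo5 was last at 0.555 ± 0.149 CPM per kb in KO islets and 0.685 ± 0.125 in control islets, above only 9.04% of tested genes, and its highest control library (0.840) was below the lowest library of Dicer1 or Tnrc6b in either group. Exon lengths come from an annotation of another build than that of the counts and join the exons of all transcripts, which lowers the value of genes with long alternative exons. With the longest transcript in place of all exons, the median level of the 10 genes over all libraries was 3.87 CPM per kb, against 2.36 with all exons, and that of the median tested gene in control islets was 4.07, against 3.01. Some places in the order changed with it. Dgcr8 was then at 4.31 ± 0.554 CPM per kb in KO islets and 4.42 ± 0.507 in control islets, above 53.0% of tested genes in place of 44.0%. Dicer1, at 2.46 ± 0.324 in KO islets and 2.68 ± 0.193 in control islets, was then level with Tnrc6c, at 2.51 ± 0.299 in KO islets and 2.54 ± 0.361 in control islets.

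**Figure D2:**
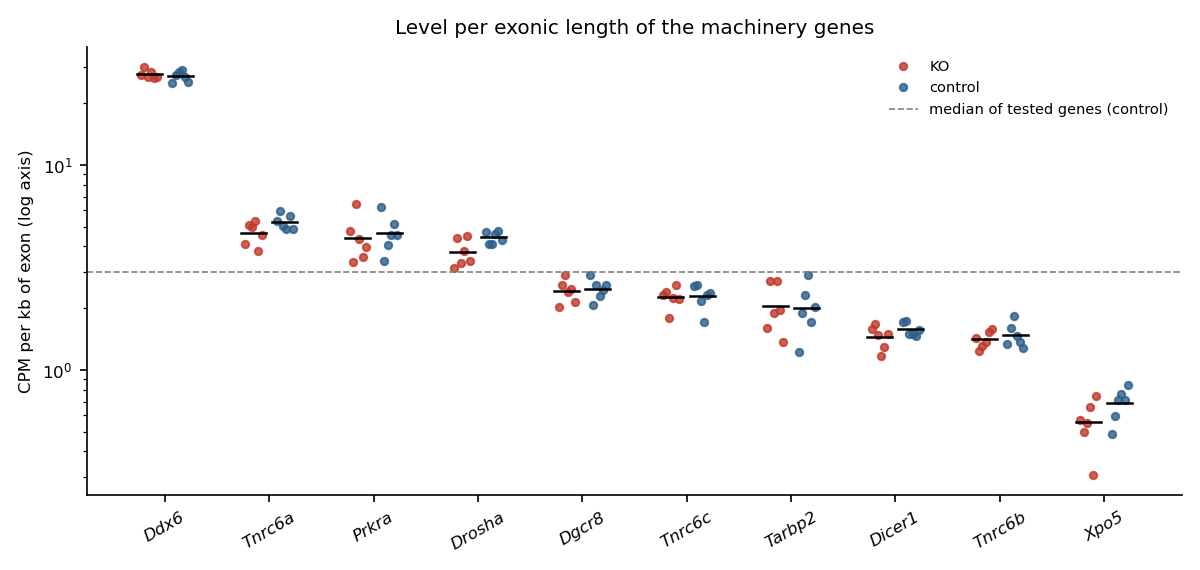
Level of each gene in CPM per kb of exon on a log axis, one point per library with KO left of control, black bars at group means and the median tested gene in control islets as a dashed line. Ddx6 lies at about 27 CPM per kb in both groups, and Xpo5 is lowest at 0.555 in KO islets and 0.685 in control islets.

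Drosha, the nuclear RNase III enzyme (chr15:12824815-12935291, plus strand, GRCm38), had the smallest p-value of the 10. Its lowest, median and highest values were 18.5, 21.3 and 26.7 CPM in KO islets, against 24.3, 26.3 and 28.3 CPM in control islets. In 4 of 6 KO libraries Drosha was below the lowest control library, while KO replicates 2 and 5 lay within the control range. The means were 22.3 ± 3.45 CPM in KO islets and 26.3 ± 1.77 CPM in control islets (n = 6 each, SD), with a log2 fold change of -0.24 (SE 0.10), or 0.848-fold, with a 95% interval of 0.734- to 0.980-fold. The difference did not pass in edgeR's quasi-likelihood test (unadjusted p = 0.0275, Benjamini-Hochberg adjusted p = 0.583). A two-sided exact permutation test over the 12 libraries gave p = 0.0411, and 0.00216 is the smallest p it can give. Over all tested genes, 7.39% had a permutation p under 0.05. In the authors' deposited table the log2 fold change of Drosha is -0.24 with an unadjusted p of 0.0508. With the 3 acinar-rich libraries left out, the log2 fold change was -0.24 (edgeR unadjusted p = 0.0455). The spread between KO libraries (coefficient of variation 15.5%) exceeded that between control libraries (6.74%). A mean of 90.8 counts per library gives a counting error of 10.5%, above the control spread, so the control range was narrow for such counts.

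Dgcr8, the double-stranded RNA-binding partner of Drosha (chr16:18253948-18289246, minus strand), was close to equal in the groups. The lowest, median and highest values of Dgcr8 were 15.7, 18.7 and 22.2 CPM in KO islets, against 15.9, 19.4 and 22.3 CPM in control islets. These ranges almost coincide. The log2 fold change was -0.02 ± 0.11, with a 95% interval of 0.843- to 1.16-fold (edgeR quasi-likelihood test, adjusted p = 0.985), and it was 0.06 with the 3 acinar-rich libraries left out. The ratio of Drosha to Dgcr8, both per kb, was 1.56 ± 0.226 in KO islets and 1.80 ± 0.199 in control islets (n = 6 each, SD), with overlapping ranges of 1.15 to 1.82 in KO islets and 1.59 to 2.01 in control islets. The exons of Dgcr8 share 825 bases, or 10.7% of its exonic length, with Trmt2a on the opposite strand, and the sources used here do not state whether the counting used strand, so reads of the 2 genes may not be told apart there.

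Xpo5, the receptor that exports precursor hairpins (chr17:46202782-46243598, plus strand), had the largest estimate and the widest interval. It had 2.12, 3.85 and 5.105 CPM (lowest, median, highest) in KO islets, against 3.34, 4.88 and 5.76 CPM in control islets. KO replicate 5 was the single library below the control range. The log2 fold change of Xpo5 was -0.30 ± 0.22, or 0.810-fold with a 95% interval of 0.593- to 1.11-fold (edgeR quasi-likelihood test, adjusted p = 0.785). It rests on 5 to 27 counts per library, which gives a counting error of 24.8%.

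Dicer1, the cytoplasmic RNase III enzyme (chr12:104687742-104751952, minus strand), had 19.5, 24.95 and 28.0 CPM (lowest, median, highest) in KO islets, against 24.4, 25.7 and 28.9 CPM in control islets. The medians nearly match, and KO replicates 4 and 5 fell below all control libraries. The coefficient of variation of Dicer1 in control islets, 7.21%, was below the counting error of 10.2%, so the control range was narrow for such counts. The log2 fold change of Dicer1 was -0.12 ± 0.10, with a 95% interval of 0.800- to 1.06-fold (edgeR quasi-likelihood test, adjusted p = 0.825). It was -0.05 without KO replicate 4 and -0.17 without KO replicate 2, the lowest and the highest KO library (edgeR unadjusted p = 0.622 and 0.103).

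Tarbp2 and Prkra encode related double-stranded RNA-binding proteins that pair with Dicer. Tarbp2 (chr15:102518192-102523676, plus strand) had 6.20, 8.74 and 12.3 CPM (lowest, median, highest) in KO islets, against 5.57, 8.90 and 13.2 CPM in control islets. Prkra (chr2:76629898-76648015, minus strand) had 6.79, 8.42 and 13.1 CPM in KO islets, against 6.89, 9.21 and 12.6 CPM in control islets. Both genes varied widely within each group and little between groups. The log2 fold changes were 0.03 ± 0.20 for Tarbp2 and -0.04 ± 0.18 for Prkra (edgeR quasi-likelihood test, adjusted p = 0.985 and 0.980). The coefficient of variation of Tarbp2 was 27.4% in KO islets and 28.2% in control islets. Both were above the counting error of 16.7%, a difference that was not tested. The ratio of Tarbp2 to Prkra, both per kb, was 0.492 ± 0.203 in KO islets and 0.457 ± 0.166 in control islets (n = 6 each, SD). The estimate for Prkra was 0.12 with the 3 acinar-rich libraries left out, the sign opposite to that with all libraries.

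Tnrc6a (chr7:123123885-123195296, plus strand), a GW182 scaffold that bridges Argonaute to the deadenylases, had the next smallest p-value. It had 48.2, 60.4 and 67.6 CPM (lowest, median, highest) in KO islets, against 61.5, 66.1 and 75.6 CPM in control islets. KO replicates 1, 5 and 6 were below the lowest control library, and the other KO libraries lay within the control range. Tnrc6a averaged 58.9 ± 7.598 CPM in KO islets and 67.0 ± 5.65 CPM in control islets (n = 6 each, SD), with a log2 fold change of -0.17 ± 0.09 with a 95% interval of 0.785- to 1.002-fold. It did not pass in edgeR's quasi-likelihood test (unadjusted p = 0.0533, adjusted p = 0.647), nor was the two-sided exact permutation p of 0.0693 under 0.05. In the authors' deposited table its log2 fold change is -0.17 with an unadjusted p of 0.0672. With the 3 acinar-rich libraries left out, among them KO replicates 5 and 6, the log2 fold change was -0.10 (edgeR unadjusted p = 0.255). With the acinar share as a covariate over all 12 libraries it was -0.15 ± 0.09 (edgeR unadjusted p = 0.0848).

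Tnrc6b and Tnrc6c encode the other GW182 proteins. Tnrc6b (chr15:80711313-80941085, plus strand), which holds 6 of the 13 seed matches, had 29.3, 33.2 and 37.6 CPM (lowest, median, highest) in KO islets, against 30.3, 33.4 and 43.1 CPM in control islets. Tnrc6c (chr11:117654289-117763439, plus strand) had 22.98, 29.3 and 33.4 CPM in KO islets, against 22.04, 30.1 and 33.4 CPM in control islets. In both genes the groups covered nearly the same range, apart from control replicate 3 at the top for Tnrc6b. The log2 fold changes were -0.07 ± 0.09 for Tnrc6b and -0.02 ± 0.10 for Tnrc6c, with 95% intervals of 0.833- to 1.08-fold and 0.850- to 1.15-fold (edgeR quasi-likelihood test, adjusted p = 0.918 and 0.984). With the acinar-rich libraries left out, the estimate for Tnrc6b was -0.16 (edgeR unadjusted p = 0.139). Of the summed Tnrc6 level per kb, Tnrc6a made up 55.7 ± 5.15% in KO islets and 58.4 ± 1.80% in control islets (n = 6 each, SD). Tnrc6c made up 27.3 ± 3.64% in KO islets and 25.3 ± 2.46% in control islets, and Tnrc6b 17.04 ± 2.14% in KO islets and 16.4 ± 2.31% in control islets. Tnrc6a was thus the most abundant scaffold transcript in each group, and the shares overlapped between groups.

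Ddx6 (chr9:44604892-44640731, plus strand), a helicase that promotes decapping and translational repression, was the most precisely measured gene of the machinery. It had 213.7, 218.7 and 240.1 CPM (lowest, median, highest) in KO islets, against 201.0, 217.9 and 231.9 CPM in control islets. The groups overlapped over most of their range, with KO replicate 2 above the highest control library. Ddx6 averaged 222.3 ± 10.03 CPM in KO islets and 216.7 ± 12.5 CPM in control islets (n = 6 each, SD). Its coefficients of variation, 4.51% in KO islets and 5.78% in control islets, were above the counting error of 3.48%. The log2 fold change was 0.04 ± 0.08, with a 95% interval of 0.918- to 1.15-fold (edgeR quasi-likelihood test, adjusted p = 0.953).

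The intervals give the precision of the comparison of all 12 libraries with no covariate. For 9 of the 10 genes the 95% interval of the KO to control ratio lay within 1.5-fold in both directions, and for all 10 it lay within 2-fold. The lowest bound was 0.593-fold, in Xpo5, and the highest was 1.35-fold, in Tarbp2. The numbers in the sample titles split the groups almost completely: up to 706 there are 6 KO libraries and 1 control library, and from 805 on control libraries alone. With a term for that split, which leaves the comparison to 1 control library, the estimate for Tarbp2 was 0.77 ± 0.44 on the log2 scale. That for Prkra was then -0.49 ± 0.33, that for Dgcr8 -0.25 ± 0.22 and that for Xpo5 0.20 ± 0.49. The estimates of all these genes lay outside their intervals without the term, and those of the other genes lay inside. What the numbers stand for is not given, and beyond the 1 control library up to 706 their split and the genotype cannot be told apart. This library is control replicate 1, itself acinar-rich. With the 3 acinar-rich libraries left out, KO numbers were 659 to 662 and control numbers 805 to 992. In values without those libraries, title number and genotype cannot be told apart at all. These intervals are not adjusted for the number of genes, and a p that misses the threshold does not show that the groups are equal. Of the 6 genes with seed matches, Dgcr8, Dicer1, Tnrc6a, Tnrc6b and Tnrc6c had estimates of -0.17 to -0.02 on the log2 scale and Ddx6 had 0.04. The genes without a match had estimates of -0.24 (Drosha), -0.30 (Xpo5), 0.03 (Tarbp2) and -0.04 (Prkra).

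**Figure D3:**
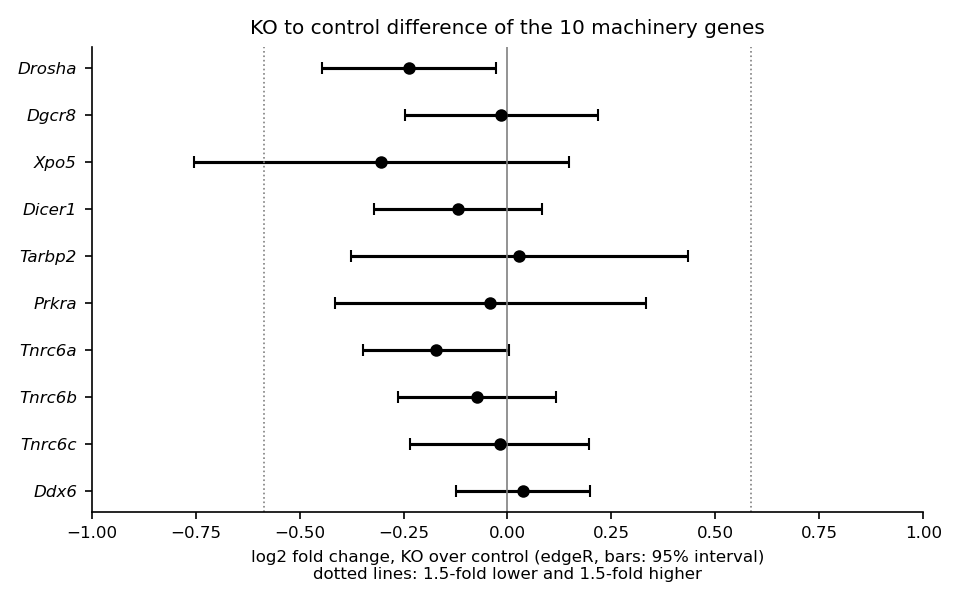
Log2 fold change of KO over control for the 10 genes in order of role, points with 95% intervals from edgeR, a solid line at 0 and dotted lines at 1.5-fold. All estimates lie between -0.30 (Xpo5) and 0.04 (Ddx6), and the Xpo5 interval alone crosses a dotted line.

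Under none of the settings tried, including each library left out in turn, did a gene of the machinery pass the threshold, and the lowest adjusted p was 0.419 in edgeR, for Drosha without KO replicate 2. With a library left out, the log2 fold change of Drosha ran from -0.30 to -0.19, with an unadjusted p under 0.05 in 8 of 12 fits and up to 0.0779. That of Tnrc6a ran from -0.22 to -0.13, with 5 of 12 fits under 0.05.

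**Figure D4:**
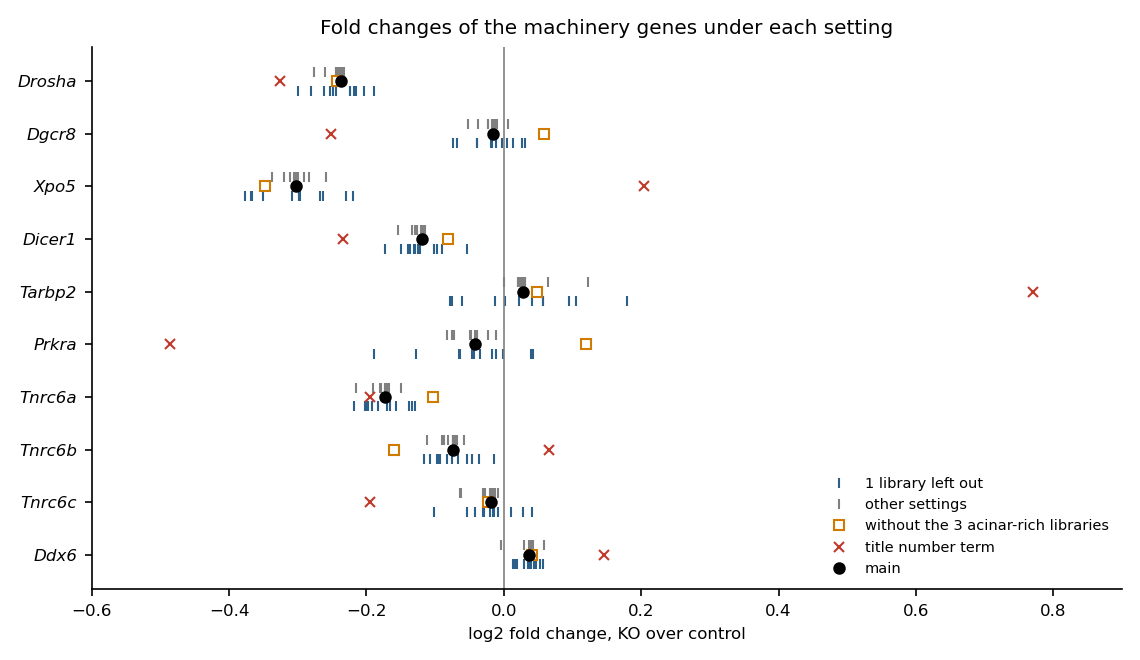
Log2 fold change of KO over control for each of the 10 genes under the settings tried, with a black circle for the reported value, blue ticks for 1 library left out, an orange square without the 3 acinar-rich libraries, a red cross for a term for the sample title's number, and grey ticks for the rest. Drosha, Dicer1 and Tnrc6a lie below 0 under every setting shown, and the other 7 genes lie on both sides of 0.

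Other genes of the pathway were counted from 6 lists: 95 were in the table, 87 could be tested, and 0 passed the threshold in edgeR's quasi-likelihood test. At an unadjusted p under 0.05 there were 3 higher and 2 lower in KO islets, beside 389 higher and 375 lower (7.91% in all) among the 9664 tested genes. The median log2 fold change was -0.01, with 40 estimates above 0 and 47 below, or 54.0% below 0, beside 49.3% of all tested genes. The genes named from each list are the 2 with the smallest p, none of which passed.

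The Argonaute genes, whose proteins hold the mature microRNA, appear in the table under their older symbols Eif2c1 to Eif2c4. Eif2c2, which encodes AGO2, had 12.8 ± 2.27 CPM in KO islets and 15.1 ± 2.34 CPM in control islets (n = 6 each, SD), with a log2 fold change of -0.23 ± 0.14 (edgeR adjusted p = 0.738). It was -0.17 with the acinar-rich libraries left out (edgeR unadjusted p = 0.294). Eif2c4 was at 0.10 ± 0.19 on the log2 fold scale (edgeR adjusted p = 0.949) and Eif2c1 at 0.04 ± 0.18 (edgeR adjusted p = 0.980). Eif2c3 was too low to be tested, with 10 counts summed over KO libraries and 23 summed over control libraries.

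Of the nuclear cofactors, 14 of 15 were tested, 8 above and 6 below 0, with a median of 0.01. Smad4, the common partner of the SMAD signal transducers, some of which bind primary microRNA transcripts, had the smallest p. It had 27.1, 28.7 and 34.3 CPM (lowest, median, highest) in KO islets, against 21.6, 23.6 and 28.9 CPM in control islets, with all 6 KO libraries above the control mean. Its log2 fold change was 0.26 ± 0.09 (edgeR unadjusted p = 0.0108, adjusted p = 0.434), and 0.21 with the acinar-rich libraries left out (edgeR unadjusted p = 0.0690). Ran, the GTPase that drives exportin 5, was at -0.15 ± 0.08 on the log2 fold scale (edgeR adjusted p = 0.651), and at -0.22 without those libraries (edgeR unadjusted p = 0.0139). Hnrnpa1 is listed at 0 in all 12 libraries. This may come from how reads were counted, which was not tested, and is not taken to mean that the gene is silent in islets. In the list for precursor tailing and let-7 control, 5 of 8 genes were tested with a median of -0.04. Dis3l2, the exonuclease that degrades tailed let-7 precursors, was at 0.43 ± 0.22 and Mettl1, an RNA methyltransferase, at -0.10 ± 0.08 on the log2 fold scale (edgeR adjusted p = 0.666 and 0.803).

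Among genes of Argonaute loading and regulation, 22 of 24 were tested, 12 above and 10 below 0, with a median of 0.02. Fmr1, an RNA-binding protein found with Argonaute, had 7.47 ± 1.94 CPM in KO islets and 10.2 ± 1.49 CPM in control islets (n = 6 each, SD), with a log2 fold change of -0.40 ± 0.17 (edgeR unadjusted p = 0.0298, adjusted p = 0.591). It was -0.27 with the acinar-rich libraries left out (edgeR unadjusted p = 0.154). Fkbp4, a cochaperone of HSP90, was at 0.17 ± 0.08 (edgeR adjusted p = 0.614). All 20 genes of the CCR4-NOT and PAN deadenylase list were tested, 9 above and 11 below 0, with a median of -0.0048. Btg1, which binds the CCR4-NOT deadenylases, was at 0.22 ± 0.10 on the log2 fold scale (edgeR adjusted p = 0.614). Cnot4, a ubiquitin ligase, was at 0.25 ± 0.14 (edgeR adjusted p = 0.714). Btg1 was at 0.13 and Fkbp4 at 0.12 with the acinar-rich libraries left out.

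The list for decapping, translation repression and decay had 23 of 24 genes tested, 7 above and 16 below 0, with a median of -0.04 against 0.0036 for all tested genes. Dcp1a, a cofactor of the decapping enzyme, had 1.82, 2.90 and 5.48 CPM (lowest, median, highest) in KO islets, against 4.23, 4.62 and 5.98 CPM in control islets. In 5 of 6 KO libraries it was below the lowest control library. Dcp1a had a coefficient of variation of 15.1% in control islets, below its counting error of 25.5%, so its control range was narrow for such counts. Its log2 fold change was -0.58 ± 0.24 (edgeR adjusted p = 0.566), from 74 counts in all KO libraries and 110 in all control libraries, and it was -0.40 with the 3 acinar-rich libraries left out (edgeR unadjusted p = 0.143). Lsm14b, a translational repressor of the DDX6 network, was at -0.21 ± 0.11 (edgeR adjusted p = 0.671).

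**Figure D5:**
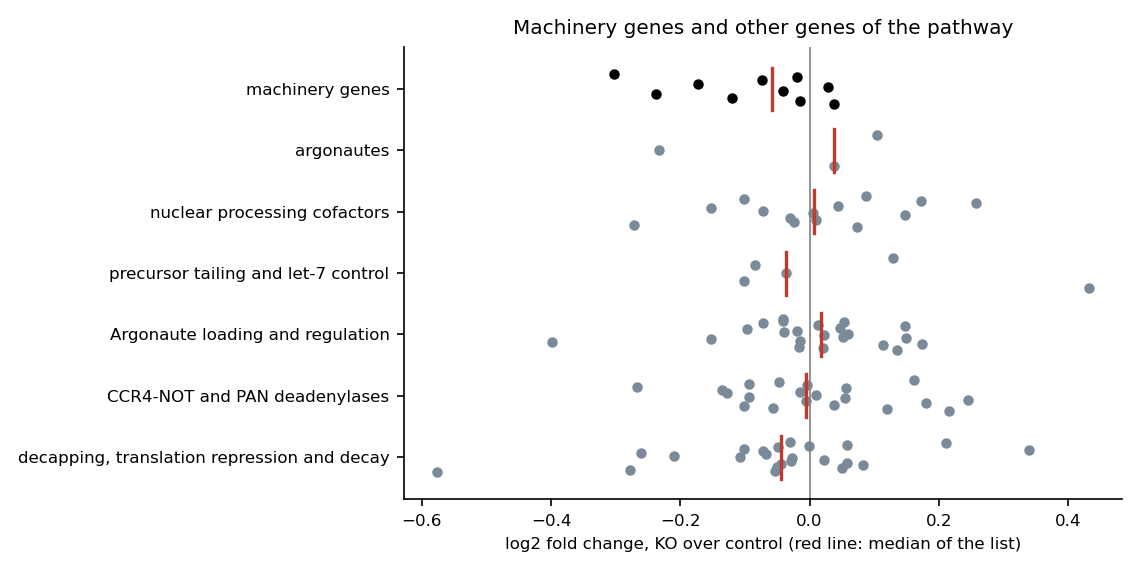
Log2 fold change of KO over control for the tested genes of the machinery and of the 6 other pathway lists, one point per gene, with a red line at each list's median. List medians lie between -0.06 for the machinery and 0.04 for the Argonaute genes, and single genes reach -0.58 (Dcp1a) and 0.43 (Dis3l2).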

How the data were processed

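Total RNA of isolated islets came from Trizol and miRNeasy extraction, per the labels' protocols. The submitters' processing notes name TopHat2, HTSeq, DESeq2 version 1.4.5 and mm9 without saying what each did. Annotation and strand setting are not given in the sources used here. The deposited table holds raw read counts per gene in 23366 rows. Of these, 27 rows whose names had become dates (0.0447% of counts) were left out. The authors' normalized signal equals the count divided by 1 factor per library (0.662 to 1.35) and was not tested. The authors' deposited table also gives a log2 fold change and an unadjusted p-value per gene.

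Counts were tested with edgeR 4.0.16 (R 4.3.3; quasi-likelihood, TMM factors, minimum count 10, minimum total 15, Benjamini-Hochberg), 6 KO against 6 control libraries without covariates. CPM values use TMM-scaled library sizes. DESeq2 1.42.0, limma 3.58.1 and the other settings are alternatives. The fit was tested on simulated data. All 66 library pairs differed beyond sampling noise (smallest chi-square per gene 1.97). Counting errors cover counting only, since reads are not independent molecules. GENCODE M21 and RefSeq tables of GRCm38 gave lengths, 3′ UTRs, coordinates and sequences, matched by symbol; 9611 of 9664 tested genes had a length.

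The members and lists were chosen with earlier results of these data known. Named were all 10 members and, of each other list, any gene past the threshold or else the 2 smallest p-values; Eif2c1, Eif2c3 and Hnrnpa1 were added to account for their lists after their values were seen.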

Additional observations from a re-analysis of the deposited data

Results flagged for a closer look

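Chance flags about 1 in 20 groups, and 44 groups of 6 libraries were looked at for a library far from the others. Control replicate 4 was the library that stood apart in both cases found, and neither concerns the 10 genes of the machinery. Btg1 had 82.1 CPM in that library, against 59.2 to 66.6 CPM in the other control libraries. Cnot4 had 13.6 CPM there, against 8.92 to 10.5 CPM in the other control libraries.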

How the results depend on the processing

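None of the 10 genes passed the threshold under any setting. Over all tested genes, 12 passed in the reported edgeR fit, against 28 with DESeq2, 22 with no count filter, 30 with the 3 acinar-rich libraries left out, 33 with the acinar share as a covariate, 26 at an adjusted p of 0.10 and 0 with a term for the number in the sample title (530 at an unadjusted p under 0.05). They were 5 to 17 with a library left out, with 5 without KO replicate 1, 6 without KO replicate 4 and 7 without control replicate 5. The title term separates numbers up to 706 from those from 805 and rests on 1 control library among 6 KO libraries. This control library is replicate 1, itself acinar-rich, and without the acinar-rich libraries the title numbers split the groups completely. Of 257 log2 fold changes of the 10 genes under other settings, 20 had the opposite sign. With the acinar-rich libraries left out, Dgcr8 was at 0.058 and Prkra at 0.12. With voom, Dgcr8 was at 0.0061. With library totals alone, Tarbp2 was at -5.48e-05 and Ddx6 at -0.0042. With the title term, Xpo5 was at 0.20 and Tnrc6b at 0.066. Mettl1 of the other lists was at 0.056, and Tarbp2 moved to 0.77, Prkra to -0.49 and Dgcr8 to -0.25 without a change of sign. With a library left out, values ran from -0.075 to 0.031 for Dgcr8, -0.078 to 0.18 for Tarbp2, -0.19 to 0.042 for Prkra and -0.10 to 0.041 for Tnrc6c. The cause was not tested. Seed matches were 13 as 7mers and 4 as 8mers, and the median level was 2.36 CPM per kb of exon and 3.87 per kb of the longest transcript. KO and control libraries share replicate numbers, but same-numbered libraries correlated at -0.115 to 0.0516 in their deviations from the group means and no KO library correlated best with its own number. With the replicate number as a block, 14 genes and none of the 10 passed. Low counts limit Xpo5 most.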
